A study of Homo sapiens with 8 samples.

Results

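The 43 genes described here encode the core machinery of autophagy and its cargo receptors, and they were followed across K562 and KBM5, both human lines of chronic myeloid leukaemia. They were taken from the array table by gene symbol, from a list of names. The rule uses no measured value, but the list was chosen with earlier results of these data known. Comparisons of the members with all genes are therefore not independent of those results. All 43 were found among the 17687 genes of the array table, each with a single probe set. The series held 8 arrays, 1 for each of 4 treatments in each line: no drug (control), OR21, imatinib (IM), and OR21 followed by IM (combination). The labels give a single schedule, that of the combination, with OR21 at 100 nM over 3 consecutive days before IM at 1000 nM and RNA taken 24 hours later, and do not state the doses of the single-drug arrays separately. The cells were grown in RPMI-1640 medium with foetal bovine serum. OR21 is described in the labels as a demethylating agent, and imatinib blocks the BCR-ABL1 kinase on which these cells depend. The comparisons asked how each drug and their combination changed expression in each line.

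Autophagy encloses cytoplasm in a double membrane, the autophagosome, and delivers it to the lysosome. The ULK1 kinase complex starts the process, the PIK3C3 lipid kinase complex marks the site, ATG9A, ATG2 and WIPI proteins supply and shape the membrane, and the ATG12 and ATG8 conjugation systems attach ATG8 proteins (LC3 and GABARAP) to it. Cargo receptors such as SQSTM1 bind ATG8 proteins and bring in ubiquitinated proteins or organelles. In erythroid cells BNIP3L is known for clearing mitochondria during maturation, and BCR-ABL1 signalling through mTORC1 is known to restrain autophagy.

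The RefSeq promoter windows of the members (GRCh38.p14, 250 bases before to 50 bases after the start) are described first, because OR21 is a demethylating agent and CpG content is the substrate of DNA methylation. Of the 43 members, 36 were counted, with 45 windows. CALCOCO1, ATG4D, UVRAG and MAP1LC3A had no entry. TP53INP1, RB1CC1 and BNIP3L were left out by a rule given with the processing, so their absence here does not show that they lacked an entry. The member windows held a median of 27 CpG dinucleotides against 14 over all 34943 windows, and the observed over expected CpG ratio had a median of 0.877 against 0.577. 4 motifs were searched on both strands: CACGTG, the E-box core bound by the TFEB family and by MYC and HIF1A; TGTTTAC, the forkhead site of FOXO factors; TGACGTCA, the CREB and ATF site; and TGATGCAA, an amino acid response element. CACGTG lay in 7.23% of all windows and in those of ATG14, ATG3 and BNIP3. TGTTTAC lay in 3.42% of all windows and in that of CALCOCO2. TGACGTCA lay in 1.84% of all windows and in those of GABARAPL1 and TP53INP2, and TGATGCAA in 0.87% of all windows and in none of the counted members. The E-box of ATG14 started at position -21 from the start and that of BNIP3 at -134, the forkhead site of CALCOCO2 at -226 and the CREB and ATF site of GABARAPL1 at -30. These 4 windows are shown because each holds a searched motif and its gene changed with IM in at least 1 line. They are printed 5′ to 3′ on the gene's strand with the motif in capitals, for ATG14 (chr14:55411781-55412080, minus strand), CALCOCO2 (chr17:48830785-48831084, plus strand), GABARAPL1 (chr12:10212627-10212926, plus strand) and BNIP3 (chr10:131981874-131982173, minus strand). A motif match describes these letters and is no measured binding site.
ATG14: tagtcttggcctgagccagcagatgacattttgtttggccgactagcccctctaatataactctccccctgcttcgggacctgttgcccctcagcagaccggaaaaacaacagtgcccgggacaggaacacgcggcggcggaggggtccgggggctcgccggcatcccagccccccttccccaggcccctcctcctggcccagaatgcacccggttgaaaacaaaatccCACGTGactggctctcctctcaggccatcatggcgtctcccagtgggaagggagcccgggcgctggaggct
CALCOCO2: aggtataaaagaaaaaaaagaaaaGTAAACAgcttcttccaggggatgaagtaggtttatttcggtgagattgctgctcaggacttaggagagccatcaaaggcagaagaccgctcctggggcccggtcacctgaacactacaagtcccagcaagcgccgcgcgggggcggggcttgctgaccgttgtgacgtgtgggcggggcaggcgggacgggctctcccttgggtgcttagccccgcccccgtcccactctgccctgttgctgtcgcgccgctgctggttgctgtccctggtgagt
GABARAPL1: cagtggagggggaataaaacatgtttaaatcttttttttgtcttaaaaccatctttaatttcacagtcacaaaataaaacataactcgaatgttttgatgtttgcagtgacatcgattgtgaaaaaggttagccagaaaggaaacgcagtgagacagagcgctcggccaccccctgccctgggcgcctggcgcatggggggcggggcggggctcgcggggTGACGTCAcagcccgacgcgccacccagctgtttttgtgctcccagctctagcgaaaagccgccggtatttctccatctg
BNIP3: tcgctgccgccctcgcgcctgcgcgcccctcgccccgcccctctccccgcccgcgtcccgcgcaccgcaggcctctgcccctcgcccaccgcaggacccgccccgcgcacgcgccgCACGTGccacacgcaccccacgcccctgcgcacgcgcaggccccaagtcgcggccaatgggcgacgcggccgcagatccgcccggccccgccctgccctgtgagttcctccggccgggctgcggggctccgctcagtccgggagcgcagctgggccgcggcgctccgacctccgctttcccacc

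Values below are the intensities deposited by the authors, always in the order control, OR21, IM and combination. A member was taken as detected on an array where it exceeded 95% of the 612 negative controls of that array, a background between 161 and 263. By this measure, 24 members were detected on all 8 arrays, 14 on some and 5 (ULK2, ATG2B, MAP1LC3A, TECPR1 and TP53INP2) on none. The members detected numbered 33, 34, 35 and 36 in K562 and 26, 30, 28 and 32 in KBM5, and all genes detected 7061, 7083, 6662 and 6762 in K562 and 5874, 6668, 6091 and 6637 in KBM5. With the background at the 99th percentile of the negative controls the order of the lines turned for OR21 and IM (11, 6, 13 and 20 members in K562, 10, 8, 21 and 12 in KBM5). At the 95th percentile ATG4A, ATG10, WIPI1 and FUNDC1 were detected on every K562 array and on no KBM5 array. The array medians lay between 77.8 and 83.3. In such bulk RNA, fewer cells of a kind and less RNA per cell cannot be told apart.

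Lineage markers also moved with imatinib, erythroid ones in K562 and granulocytic and monocytic ones in KBM5. Some were also higher on the OR21 array than on the control, among them ALAS2 in K562 and LYZ and MPO in KBM5. In K562 KLF1, HBE1, HBZ, EPOR, ALAS2 and SLC4A1 rose with IM (limma, model per line). The summed intensity of 8 measured erythroid markers was 103510, 266550, 679870 and 737630, with ALAS2 at 383, 4611, 75930 and 90010. In KBM5 the same sum was 19869, 20027, 2447 and 1810, almost all of it the transferrin receptor TFRC, and the defining markers GATA1, KLF1, HBE1, HBZ, ALAS2 and SLC4A1 were not above background on any array. The granulocytic and monocytic markers (10 measured) summed to 73526, 152440, 351520 and 351620 in KBM5, led by LYZ at 12340, 31220, 255000 and 185900, and to 1772 to 3051 in K562. AZU1, CEBPA, CSF3R, SPI1, CSF1R and LYZ rose with IM in KBM5, and MPO and TFRC fell. PRTN3, CTSG and CEBPE were not called there. PRTN3 read 25240, 44590, 21920 and 27500, and CTSG 6992, 19150, 2837 and 28750. CEBPE read 51.0, 241, 34.7 and 127.5. MPO read 65.8, 11440, 35.9 and 5283, above background only on the arrays with OR21. None of 6 megakaryocytic markers was detected on any array. Of 4 lymphoid markers CD79A alone was detected, on 3 KBM5 arrays, EPCAM was the only detected one of 4 epithelial markers and only in K562, and COL1A2 the only one of 5 fibroblast markers. With IM, the erythroid sum in K562 and the granulocytic and monocytic sum in KBM5 rose on the same arrays as the changes in autophagy genes below. Both sums were also higher on the OR21 array than on the control, while no autophagy member was called for OR21. The part of lineage in the changes with IM was not tested.

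Imatinib was the drug with which these genes moved. Across both lines, with line as a term in the limma model (4 arrays with IM against 4 without), 7 of 43 members rose and 1 fell at an adjusted p under 0.05, against a background of 2.75% of all genes higher and 4.87% lower. The risers were ULK1, ATG13, ATG14, GABARAP, NBR1, CALCOCO1 and TP53INP1, and ATG101 fell. The median log2 difference over the members was 0.41, against 0.06 over all genes and -0.04 over the 8460 genes above background on any array, and 34 of 43 members had a positive difference (79.1%, against 56.6% of all genes). Of those 8460 genes, 430 were called higher and 830 lower. At an unadjusted p under 0.05 there were 17 members and 4262 genes. Quantile normalization left the members at 8 higher and 1 lower, while the calls over all genes moved from 487 higher and 862 lower to 598 higher and 631 lower. Only CALCOCO1 kept its call with each of the 8 arrays left out in turn, TP53INP1 lost it only without the KBM5 IM array (adjusted p = 0.0504), and between 1 and 5 members were called in all.

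**Figure D1:**
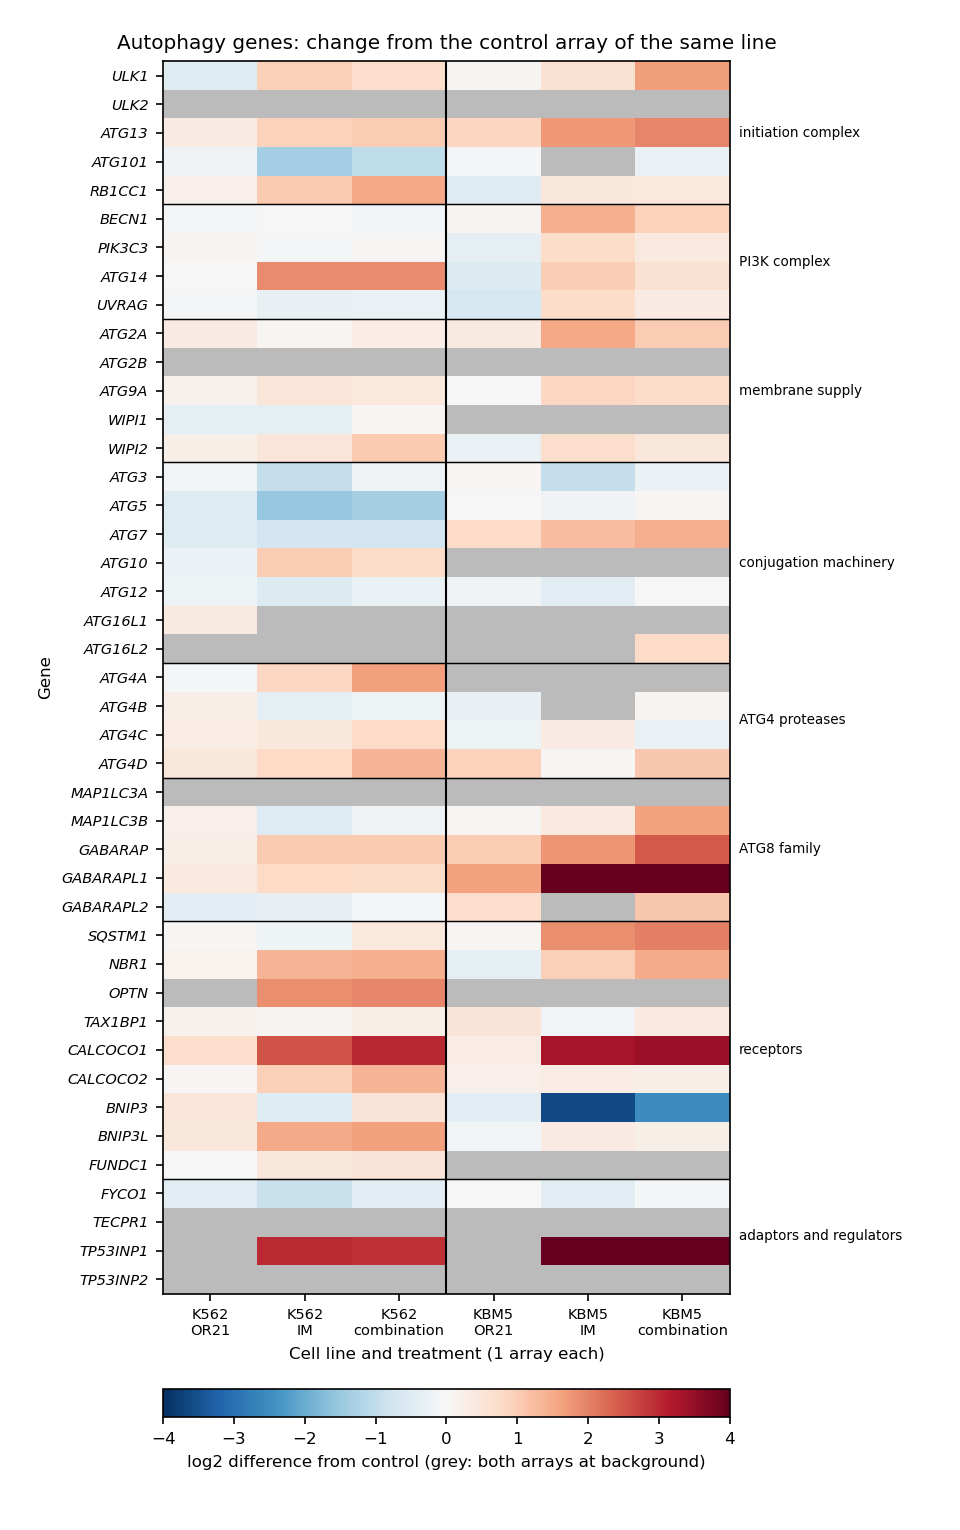
Log2 difference of each of the 43 genes from the control array of the same line (columns: line and treatment, 1 array each; rows: genes by role; grey where both arrays were at background, colour capped at 4 on either side). The columns of IM and of the combination carry most of the colour in both lines, with CALCOCO1 and TP53INP1 red in both, GABARAPL1 red and BNIP3 blue in KBM5.

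Within the lines, the model per line compared each drug with its absence in the 2 array pairs of that line, with and without the other drug. In K562, 12 members rose with IM and 3 fell, against 5.34% and 8.05% of all genes, and the median was 0.31 against 0.07 over all genes. In KBM5, 16 rose and 1 fell, against 10.8% and 10.6% of all genes, and the median was 0.51 against 0.03. Of the 8460 genes above background on any array, 760 were higher and 1304 lower in K562, and 1557 and 1712 in KBM5. These are larger shares than those over all genes, which include undetected ones. Quantile normalization gave 15 higher and 3 lower members in K562, where all genes moved from 944 higher and 1424 lower to 1102 and 1079, and 18 higher and 1 lower in KBM5. 6 members rose in both lines (ULK1, ATG14, GABARAP, NBR1, CALCOCO1 and TP53INP1), which is 50% of the K562 list and 37.5% of the KBM5 list. Over all genes, 317 rose in both, or 33.6% of the K562 list and 16.6% of the KBM5 list. 26 members were called in at least 1 line and 17 in neither, where 28.7% of all genes (5072), undetected ones included, were called in at least 1 line. None of the 26 was called in opposite directions, which was rare over all genes too, at 108 of the 5072. The lines do not share arrays, but the calls of both lines together rest on the same array pairs as these. With 1 K562 array left out, an IM effect in K562 rested on the other pair alone, 1 array against 1, with the spread behind its test taken from the KBM5 arrays. On that footing 3 calls remained without the control or the IM array (ATG14, CALCOCO1 and TP53INP1) and 4 without the OR21 or the combination array (OPTN as well). With 1 KBM5 array left out, and the spread taken in the same way from K562, 11 of the 17 KBM5 calls remained, without the control or IM array those of ULK1, NBR1 and MAP1LC3B among them and without the OR21 or combination array those of ATG2A, ATG7 and BECN1. ATG13, ATG14, GABARAP, GABARAPL1, SQSTM1, CALCOCO1, BNIP3 and TP53INP1 kept their KBM5 call with each array left out.

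The ULK1 initiation complex had 2 members higher and 1 lower with IM across the lines. ULK1 read 210.2, 149, 407 and 346 in K562 and 431, 465, 661 and 1386 in KBM5. This kinase, on which both mTORC1 and AMPK act, was higher on both IM arrays of each line than on the arrays without IM, with a difference of 1.09 ± 0.25, adjusted p = 0.0496 across the lines (limma). The call was lost with each array left out, and ULK1 was at background on the K562 OR21 array, so its K562 size (1.08 ± 0.28, adjusted p = 0.0273) is not exact. In KBM5 the difference was 1.10 ± 0.28, adjusted p = 0.0165, and its array pairs gave 0.61 and 1.58, the first of them alone not called. ATG13 read 687, 868, 1293 and 1375 in K562 and 1464, 2673, 4883 and 5637 in KBM5. ATG13, the adaptor that holds the complex together, rose across the lines by 1.10 ± 0.21 (adjusted p = 0.0311) and in KBM5 by 1.41 ± 0.25 (adjusted p = 0.00263). In K562 its difference was 0.79 ± 0.25, adjusted p = 0.0694.

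ATG101, which stabilises ATG13, went the other way. ATG101 read 375, 341, 146 and 184 in K562 and 256, 243, 122 and 212 in KBM5. All 4 arrays with IM lay below all 4 without. The IM array of each line and the KBM5 control were not above background, so these sizes are not exact. The difference was -0.88 ± 0.20, adjusted p = 0.0444 across the lines, and -1.13 ± 0.28, adjusted p = 0.0226 in K562. The call across the lines was lost with each of the 8 arrays left out, and the K562 call with each K562 array left out. In KBM5 the difference was -0.64 ± 0.28, adjusted p = 0.143. RB1CC1 (FIP200, the scaffold) read 492, 566, 1009.7 and 1449 in K562 and 965, 674, 1310.3 and 1291 in KBM5. Its groups did not overlap across the lines, and it rose in K562 by 1.20 ± 0.25 (adjusted p = 0.0101), while the difference across the lines was 0.94 ± 0.22, adjusted p = 0.0529. ULK2, the second kinase, read between 20.3 and 49.7 on all arrays and was never above background.

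The PIK3C3 complex makes the phosphatidylinositol 3-phosphate that recruits later factors. All 4 of its members rose with IM in KBM5, and ATG14 alone was called in K562. ATG14 read 194, 190.4, 726 and 719.6 in K562 and 365, 249, 729 and 561 in KBM5. ATG14, the subunit that directs the kinase to autophagosome formation, was about equal on both IM arrays of K562 and rose there by 1.91 ± 0.23 (adjusted p = 0.000533). In KBM5 it rose by 1.08 ± 0.23 (adjusted p = 0.00683), and across the lines by 1.5 ± 0.24 (adjusted p = 0.0195). BECN1 read 1155, 1089.5, 1135 and 1067 in K562 and 504, 549, 1349.6 and 956 in KBM5. Beclin 1, the regulatory subunit, differed by -0.03 ± 0.25, adjusted p = 0.963 in K562 and rose in KBM5 (1.11 ± 0.25, adjusted p = 0.00896), with pair differences of 1.42 and 0.80, the second of them alone not called. PIK3C3 read 208, 225, 199.9 and 216 in K562 and 688, 525, 1153 and 908 in KBM5. The lipid kinase itself differed by 0.77 ± 0.23, adjusted p = 0.0359 in KBM5 and -0.06 ± 0.23 in K562. UVRAG read 301, 284, 247 and 251 in K562 and 765, 483, 1284 and 964 in KBM5. UVRAG, which takes ATG14's place in a complex acting on endosomes and late autophagosomes, rose in KBM5 by 0.87 ± 0.23 (adjusted p = 0.0218) and differed by -0.23 ± 0.23 in K562. The PIK3C3 call was lost with each of the 8 arrays left out and the UVRAG call with each KBM5 array left out. The difference between the lines was not called for any of the 4 (adjusted p from 0.0617 for UVRAG to 0.153 for ATG14).

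Of the membrane supply genes none passed the test across the lines, all 5 differences were positive, and ATG2A and ATG9A rose in KBM5. ATG2A read 688, 863, 732 and 838 in K562 and 371, 472, 1082 and 755 in KBM5. ATG2A, a lipid transfer protein, rose in KBM5 by 1.11 ± 0.27 (adjusted p = 0.0129), with pair differences of 1.55 and 0.68, the second of which alone was not called. ATG9A read 1619, 1826, 2282 and 2168 in K562 and 798, 812, 1422 and 1330.1 in KBM5. ATG9A, the lipid scramblase of the seed vesicles, rose there by 0.77 ± 0.23 (adjusted p = 0.0376), a call lost with each of the 8 arrays left out. WIPI2 read 1839, 2146, 2564 and 3826 in K562 and 4593, 3793, 7555 and 6347 in KBM5. WIPI2, which reads phosphatidylinositol 3-phosphate and recruits ATG16L1, had a difference of 0.73 ± 0.24, adjusted p = 0.0503 in KBM5 and 0.66 ± 0.24, adjusted p = 0.0985 in K562. WIPI1 read 552, 431, 419 and 587 in K562 and was at background in KBM5, and ATG2B was at background on all arrays (49.6 to 134.6).

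The conjugation machinery had no member called across the lines, and its median difference there was -0.23, the only negative one among the 8 role groups. ATG7 read 757, 543, 448 and 443 in K562 and 1335, 2260.3, 3123 and 3678 in KBM5. ATG7, the E1-like enzyme that activates both ATG12 and ATG8 proteins, rose with IM in KBM5 (0.96 ± 0.25, adjusted p = 0.0201) and had a negative difference in K562 (-0.52 ± 0.25, adjusted p = 0.22). Without the KBM5 control or IM array the KBM5 value was 0.70 and was not called. ATG5 read 973, 687, 337 and 385 in K562 and 317, 323, 289 and 328 in KBM5. ATG5, the partner to which ATG12 is joined, fell in K562 by 1.18 ± 0.25 (adjusted p = 0.0124), with pair differences of -1.53 and -0.84, and differed by -0.06 ± 0.25 in KBM5. ATG16L1 read 142, 184, 74.0 and 91.9 in K562 and 61.7, 57.3, 75.5 and 73.8 in KBM5. ATG16L1, which brings the conjugate to the membrane, was above background on the K562 OR21 array only, so its K562 call (-0.97 ± 0.23, adjusted p = 0.0192) has no exact size.

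ATG3, the E2-like enzyme for ATG8 proteins, was lowest on the IM array in both lines. ATG3 read 2733, 2535, 1426 and 2488 in K562 and 3220, 3364, 1649 and 2752 in KBM5. Its pair differences for IM were -0.94 and -0.03 in K562 and -0.97 and -0.29 in KBM5, and no IM effect was called (-0.56 ± 0.16, adjusted p = 0.0938 across the lines). On the log2(value + 16) scale it was called (-0.55, adjusted p = 0.0404). ATG12 read 1605, 1380.2, 1093 and 1329 in K562 and 1416, 1292, 1058 and 1389 in KBM5. The ubiquitin-like ATG12 was also lowest on the IM array of each line, with a difference of -0.23 ± 0.16, adjusted p = 0.454. ATG10, the E2-like enzyme for ATG12, read 331, 281, 669.8 and 545 in K562 (0.99 ± 0.30, adjusted p = 0.0542) and was at background in KBM5. ATG16L2 was above background on 1 array, the KBM5 combination, at 196.

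Among the ATG4 proteases, which trim ATG8 proteins and release them from membranes, ATG4A and ATG4D rose with IM in K562. ATG4A read 583, 568, 1035 and 1829.9 in K562 and 80.6, 134, 127 and 112 in KBM5. The K562 difference was 1.26 ± 0.30, adjusted p = 0.0204, with pair differences of 0.83 and 1.69, and all KBM5 arrays were at background. ATG4D read 966, 1315, 1668 and 2492 in K562 and 304, 575, 316 and 646 in KBM5. ATG4D was highest on the combination array of each line and rose with IM in K562 (0.86 ± 0.23, adjusted p = 0.0341), while its KBM5 difference was 0.11 ± 0.23, adjusted p = 0.809. Neither K562 call held with any K562 array left out. ATG4B read between 121 and 400.4 and ATG4C between 228 and 551 over the 8 arrays, with no call.

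Of the ATG8 family, GABARAP rose with IM in both lines, and GABARAPL1 and MAP1LC3B in KBM5. GABARAP read 6336, 7408, 13030 and 13062 in K562 and 4325, 8806, 14816 and 23600 in KBM5. All 4 arrays with IM lay above all 4 without. GABARAP rose by 1.26 ± 0.25 across the lines (adjusted p = 0.0328), by 0.93 ± 0.24 in K562 (adjusted p = 0.0275) and by 1.60 ± 0.24 in KBM5 (adjusted p = 0.000848). GABARAPL1 read 198, 261, 341 and 329 in K562 and 158, 482, 2557 and 4043 in KBM5. GABARAPL1, a close relative of GABARAP, was low in K562, where both IM arrays lay above both without (0.56 ± 0.28, adjusted p = 0.24, not called), and rose in KBM5 by 3.54 ± 0.28 (adjusted p = 2.16e-05). The KBM5 control was at background, so the size is not exact, and from the OR21 to the combination array, both detected, the difference was 3.07. GABARAPL2 read 866, 653, 688 and 819.8 in K562 and 155, 253, 193 and 328 in KBM5. GABARAPL2 was detected on every K562 array and on 2 KBM5 arrays, those with OR21, with no IM call (0.17 ± 0.24, adjusted p = 0.736).

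MAP1LC3B read 1660.3, 1927, 1165 and 1505 in K562 and 388, 401, 509 and 1172 in KBM5. MAP1LC3B, the LC3 protein most used to follow autophagosomes, rose with IM in KBM5 by 0.97 ± 0.29 (adjusted p = 0.0376). Its pair differences were 0.39 and 1.55, so that most of the rise lay on the combination array. The call was lost without the KBM5 OR21 or combination array and without any K562 array. In K562 it was lowest on the IM array (-0.43 ± 0.29, adjusted p = 0.396). MAP1LC3A read 22.3, 18.8, 19.3 and 33.2 in K562 and 20.9, 36.3, 22.9 and 67.1 in KBM5, never above background.

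**Figure D2:**
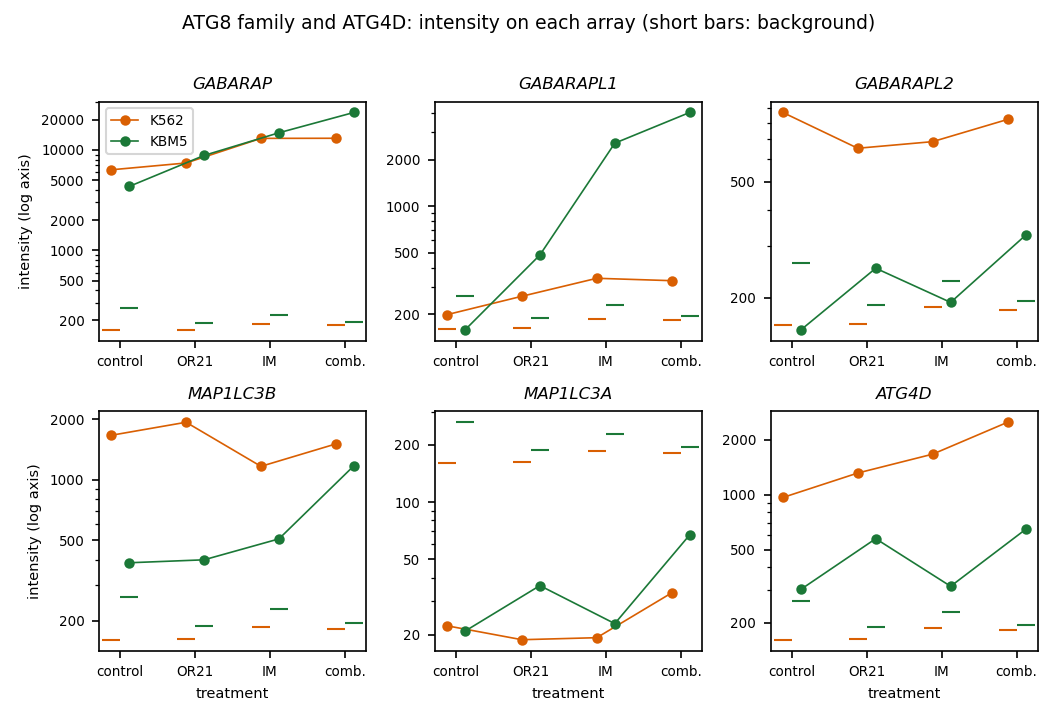
Intensity (log axis) of the 5 ATG8 family genes and ATG4D on each array, by treatment, for K562 (orange) and KBM5 (green), with the background of each array as a short bar. GABARAP lies at 13030 or more on the 4 arrays with IM, GABARAPL1 reaches 2557 and 4043 in KBM5 alone, and MAP1LC3A lies under the background bars throughout.

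The cargo receptors had 2 members called across the lines, NBR1 and CALCOCO1, both higher. CALCOCO1 read 157, 257, 904 and 1257 in K562 and 369, 454, 3633 and 4027 in KBM5. CALCOCO1, a receptor for the endoplasmic reticulum, had no overlap between arrays with and without IM. It rose by 2.82 ± 0.24 across the lines (adjusted p = 0.00507), by 2.41 ± 0.23 in K562 (adjusted p = 0.000162) and by 3.23 ± 0.23 in KBM5 (adjusted p = 1.41e-05), and each of these calls held with every array left out. The K562 control was at background, so the K562 size is not exact. NBR1 read 728, 808, 1874 and 1949.7 in K562 and 419, 319, 807 and 1162 in KBM5. NBR1, a receptor for ubiquitinated proteins, rose by 1.36 ± 0.19 across the lines (adjusted p = 0.0136), by 1.32 ± 0.27 in K562 (adjusted p = 0.01) and by 1.41 ± 0.27 in KBM5 (adjusted p = 0.00386). The KBM5 pairs gave 0.95 and 1.87, the first of them alone not called, and the call across the lines was lost without any of 5 arrays (K562 OR21 or IM, KBM5 OR21, IM or combination).

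SQSTM1 (p62) read 2181, 2248, 1933 and 2898 in K562 and 981, 1034, 3553 and 3938 in KBM5. SQSTM1, the best known receptor for ubiquitinated cargo, separated the arrays with and without IM in KBM5 and not in K562. It rose in KBM5 by 1.89 ± 0.24 (adjusted p = 0.000352), with pair differences of 1.86 and 1.93, and its K562 difference was 0.10 ± 0.24, adjusted p = 0.855. OPTN read 91.3, 121, 329.8 and 351 in K562 and 40.5, 40.5, 40.1 and 37.2 in KBM5. Optineurin, a receptor for mitochondria and bacteria, was above background only on the 2 K562 arrays with IM. There it was at least 2.10-fold higher than without IM (adjusted p = 0.0012). CALCOCO2 (NDP52) read 1345, 1377, 2598 and 3416 in K562 and 1421, 1642, 1746 and 1696 in KBM5. It rose in K562 by 1.13 ± 0.24 (adjusted p = 0.0115) and differed by 0.17 ± 0.24 in KBM5. TAX1BP1 read 1397, 1581, 1498 and 1632 in K562 and 2859.7, 4102, 2655 and 3777 in KBM5. The KBM5 arrays with OR21 were its highest, and its IM difference across the lines was -0.02 ± 0.18, adjusted p = 0.967.

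Of the mitochondrial receptors, BNIP3 fell with IM in KBM5 and BNIP3L rose in K562. BNIP3 read 7449, 10474, 5170.4 and 10679 in K562 and 10070, 7571, 820.4 and 1739.6 in KBM5. BNIP3, a HIF1A target that clears mitochondria in low oxygen, was far lower on the KBM5 arrays with IM, where it fell by 2.87 ± 0.34 on the log2 scale (adjusted p = 0.000201). The pair differences were -3.62 and -2.12, and the call held with every array left out. In K562 the pairs gave -0.53 and 0.03 and no call (adjusted p = 0.705). BNIP3L (NIX) read 11928, 16242, 33941 and 37020 in K562 and 14029, 12920, 17773 and 16576 in KBM5. BNIP3L, the receptor of reticulocyte mitochondria, rose in K562 by 1.35 ± 0.23 (adjusted p = 0.00413), beside the erythroid sum that went from 103510 on the control to 679870 on the IM array. Its 4 arrays with IM all lay above the 4 without, but the difference across the lines was 0.85 ± 0.26, adjusted p = 0.106, and 0.35 ± 0.23, adjusted p = 0.363 in KBM5. The K562 calls of BNIP3L and CALCOCO2 were lost with any K562 array left out. FUNDC1, a receptor on the outer mitochondrial membrane, read 219, 216, 298 and 309.9 in K562 (0.48 ± 0.25, adjusted p = 0.25).

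**Figure D3:**
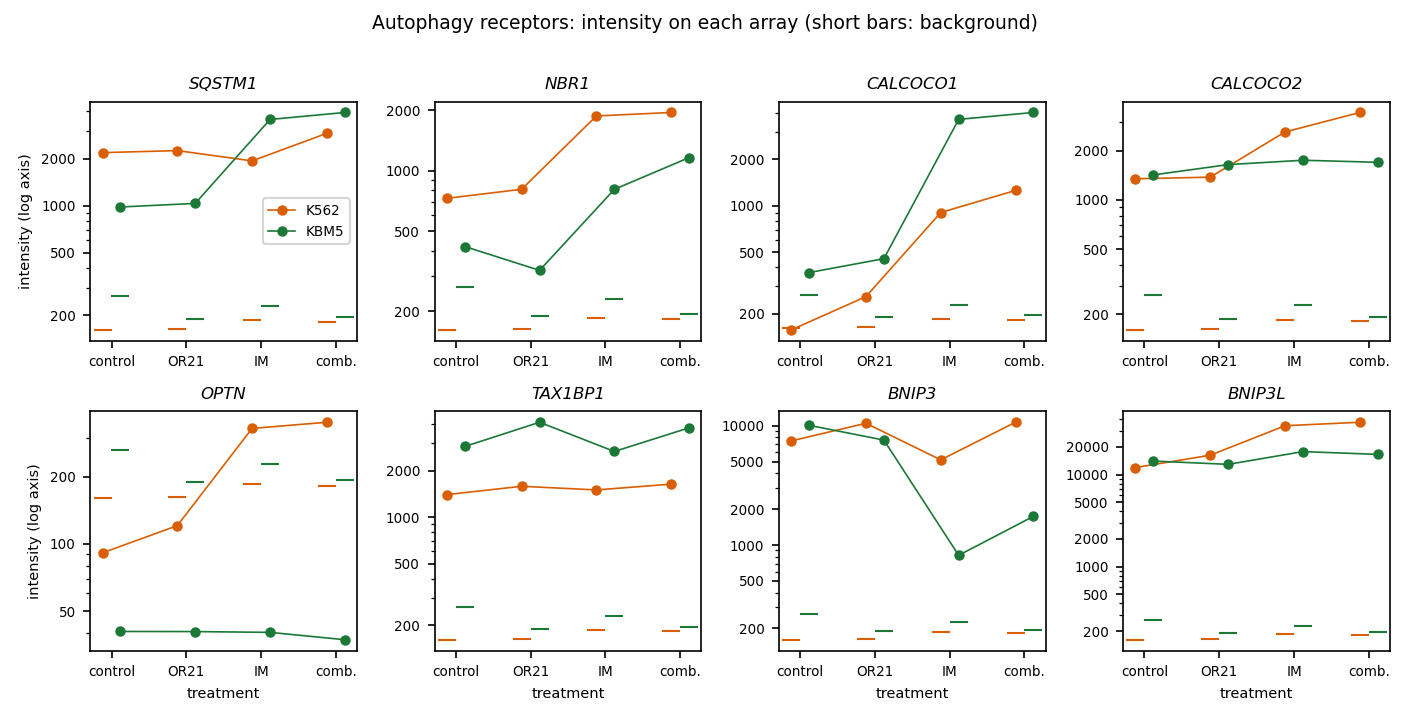
Intensity (log axis) of 8 cargo receptors on each array, by treatment, for K562 (orange) and KBM5 (green), with the background of each array as a short bar. CALCOCO1 and NBR1 are higher with IM in both lines, SQSTM1 in KBM5, OPTN, CALCOCO2 and BNIP3L in K562, and BNIP3 drops from 10070 to 820 between the KBM5 control and IM arrays.

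Of the adaptors and regulators, TP53INP1 was the only one called across the lines. TP53INP1 read 59.2, 47.3, 468 and 446 in K562 and 23.2, 83.7, 909 and 943 in KBM5. TP53INP1, a p53 target that binds ATG8 proteins, was at background on all 4 arrays without IM and above it on all 4 with IM. It was at least 3.42-fold higher with IM across the lines (adjusted p = 0.00899), at least 2.83-fold in K562 (adjusted p = 0.000461) and at least 4.15-fold in KBM5 (adjusted p = 2.66e-05). FYCO1 read 344, 258, 186 and 257 in K562 and 536, 538, 399.6 and 504 in KBM5. FYCO1, which links autophagosomes to kinesin, was lowest on the IM array of each line and was not called (-0.35 ± 0.17, adjusted p = 0.277 across the lines). TECPR1 and TP53INP2 were at background on all arrays.

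The IM effect itself differed between the lines for 6 members in the test of the difference. Of these, 4 had a higher effect in KBM5 and 2 a lower one, against 5.25% and 4.90% of all genes. Of the 8460 genes above background on any array, 803 were called higher and 766 lower. The members were called no more often than those genes. GABARAPL1 had a difference (KBM5 minus K562) of 2.98 ± 0.40, adjusted p = 0.0014, not exact in size because its KBM5 control was at background, and its call was the only one of the 6 that held with each array left out. BNIP3 (-2.62 ± 0.48, adjusted p = 0.00681), SQSTM1 (1.80 ± 0.34, adjusted p = 0.00876) and ATG7 (1.49 ± 0.36, adjusted p = 0.0259) followed, with the values of both lines given above. OPTN (-1.76 ± 0.33, adjusted p = 0.00788) was at background on every KBM5 array and ATG16L1 (1.30 ± 0.32, adjusted p = 0.0301) on every array but 1, so these sizes are not exact. Without K562 OR21 or combination the BNIP3 difference was not called (adjusted p = 0.0667), and without K562 control or IM those of SQSTM1 (0.119) and OPTN (0.0985) were not. The ATG7 difference was not called without any of 6 arrays (adjusted p up to 0.226) and that of ATG16L1 without any of the 8 (up to 0.193). Between 2 and 10 members were called with 1 array left out, and 11 with an intensity trend and robust moderation or among brighter genes alone; BECN1, UVRAG, MAP1LC3B and BNIP3L were called in both of these. The lineage markers given above also moved differently in the lines.

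**Figure D4:**
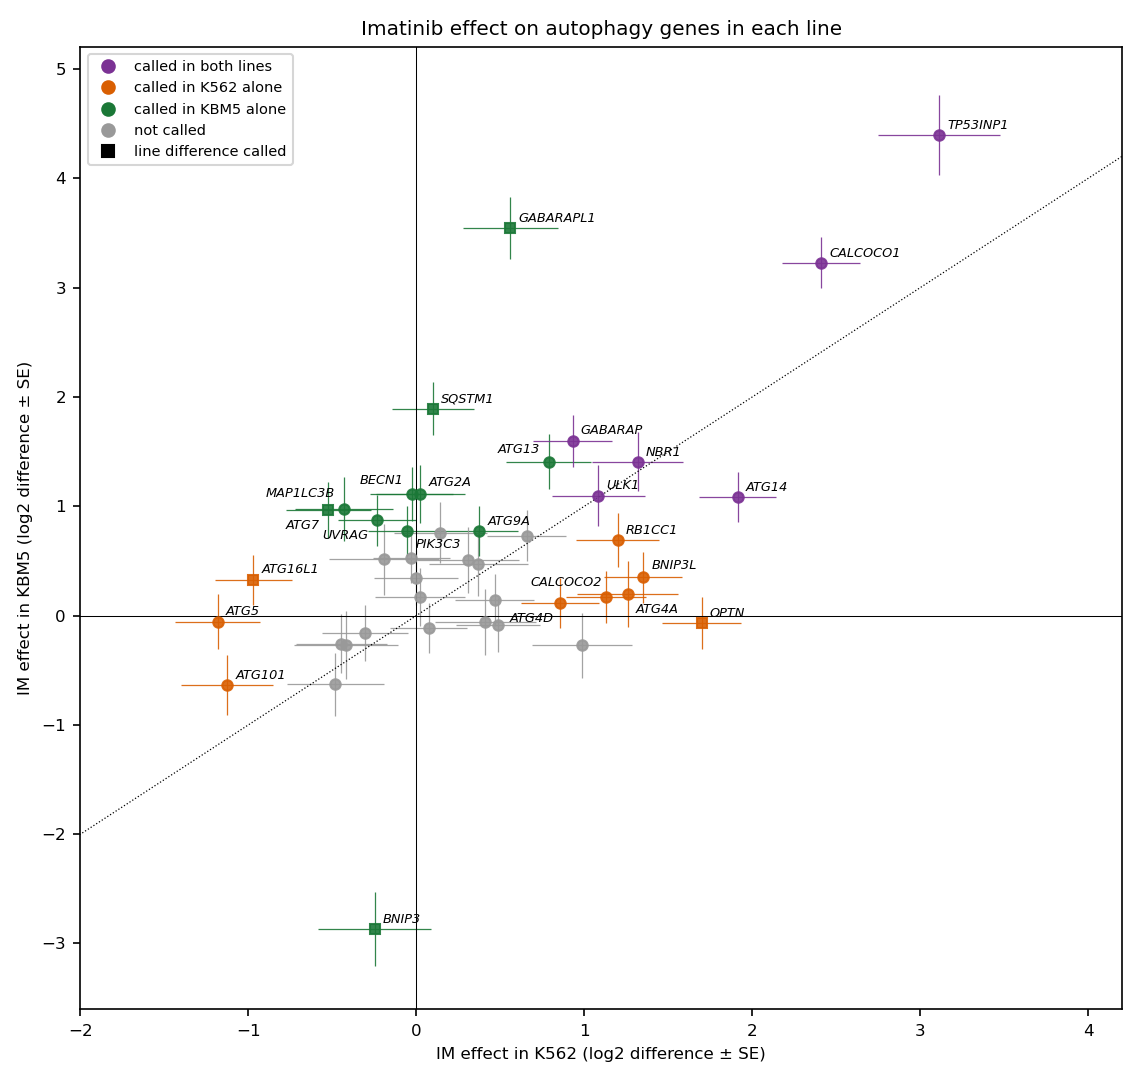
IM effect on each of the 43 genes in K562 (x axis) and KBM5 (y axis), as log2 difference with its standard error; colours give the line in which a gene was called, squares a called difference between the lines, and the dotted line equal effects. TP53INP1 and CALCOCO1 lie high in both lines, and GABARAPL1, SQSTM1 and BNIP3 lie off the dotted line along the KBM5 axis.

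No member was called for OR21 in any limma contrast. Across both lines 0 members and 0% of all genes passed (2 members and 622 genes at an unadjusted p under 0.05). In K562 the count was 0 members against 0.0905% of all genes (3 members and 863 genes unadjusted), in KBM5 0 against 0.543% (8 and 2220), and for the difference between the lines 0 against 0.102% (4 and 1352). The median member difference across the lines was 0.12 against -0.02 over all genes, with 35 of 43 positive (81.4%, against 46.8% of all genes and 57.1% of those above background on any array).

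In KBM5, where no member was called for OR21, 5 members were at least 1.5-fold higher in both KBM5 array pairs (OR21 over control and combination over IM), against 2.83% of all genes: GABARAP, GABARAPL1, GABARAPL2, MAP1LC3A and ATG4D. None reached 2-fold in both pairs. GABARAPL1 had pair differences of 1.61 and 0.66 (1.14 ± 0.28, adjusted p = 0.137), GABARAP of 1.03 and 0.67 (0.85 ± 0.24, adjusted p = 0.186) and GABARAPL2 of 0.70 and 0.77 (0.74 ± 0.25, adjusted p = 0.277). ATG4D had 0.92 and 1.03 in KBM5 (0.98 ± 0.23, adjusted p = 0.119) and 0.44 and 0.58 in K562 (0.51 ± 0.23, adjusted p = 0.999). The count of 5 uses the deposited values as they stand. MAP1LC3A was at background throughout, and GABARAPL1 was at background on the KBM5 control. GABARAPL2 was at background on both KBM5 arrays without OR21, so its differences have no exact size. Its OR21 value (253) lay under the background of the control array (263), so against background it was not 1.5-fold higher in both pairs. With an intensity trend and robust moderation ATG4D (adjusted p = 0.0435) and GABARAP (0.0203) were called. TP53INP1 was called without the KBM5 IM or combination array (adjusted p = 0.0335), from 2 arrays both at background. With all arrays its KBM5 difference was 0.95 ± 0.36, adjusted p = 0.319, with 2 of 4 arrays at background. UVRAG had the most negative KBM5 difference (-0.54 ± 0.23, adjusted p = 0.379). In K562 the largest differences were those of BNIP3 (0.77 ± 0.34, adjusted p = 0.999) and CALCOCO1 (0.60 ± 0.23, adjusted p = 0.955).

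**Figure D5:**
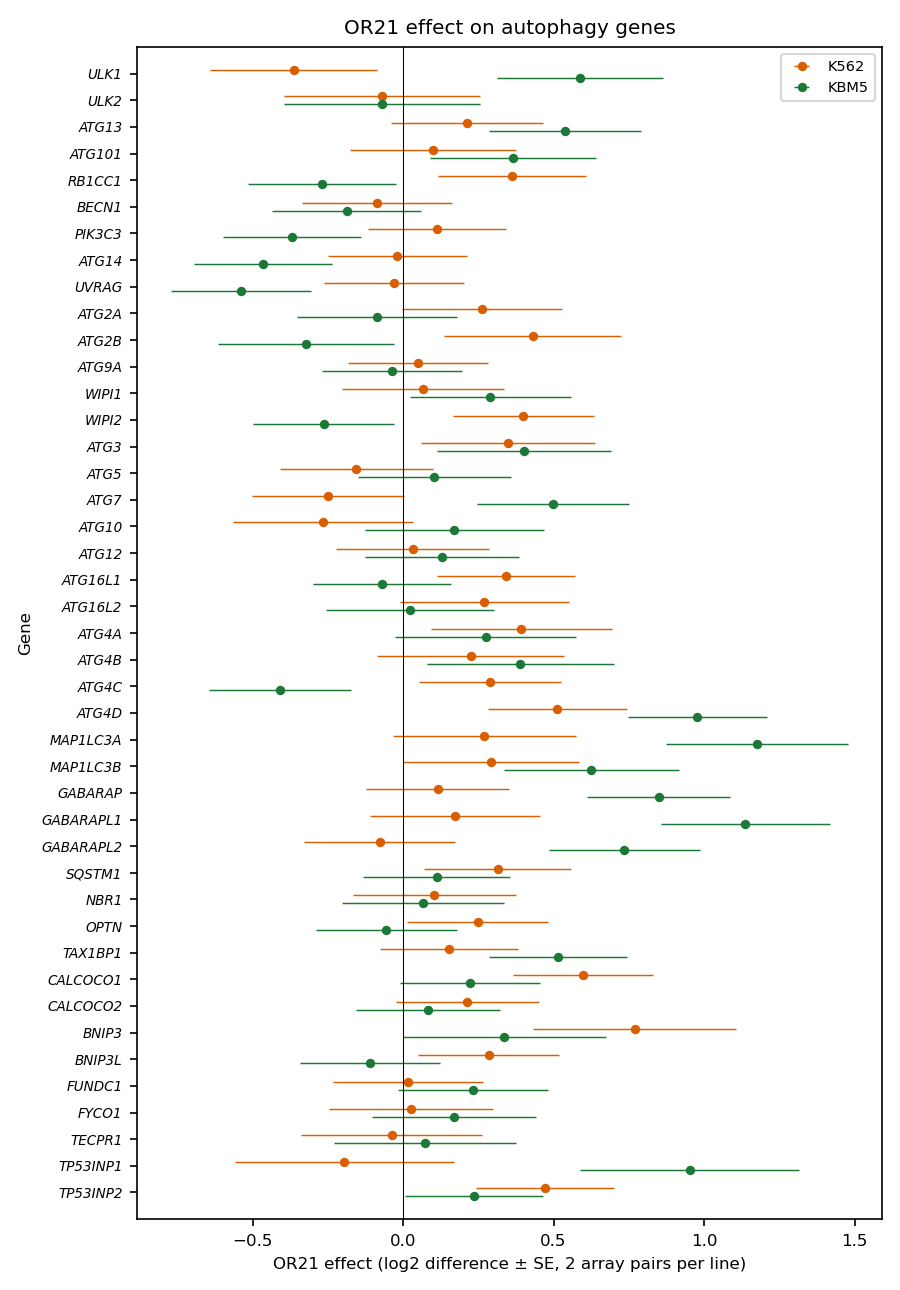
OR21 effect on each of the 43 genes (y axis) as log2 difference with its standard error (x axis), in K562 (orange) and KBM5 (green), each from 2 array pairs. In KBM5 the points of MAP1LC3A, GABARAPL1, ATG4D, TP53INP1 and GABARAP lie farthest to the right, between 0.85 and 1.18, and none passed the adjusted test.

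The combination was set against control and against IM alone with both lines in the model. Against control CALCOCO1 was the only member called (3.23 ± 0.33, adjusted p = 0.0412), where 0.0622% of all genes were higher and 0.136% lower. Quantile normalization moved the counts over all genes from 11 higher and 24 lower to 5 and 7, and CALCOCO1 was then not called, nor with any array left out. TP53INP1 (adjusted p = 0.0591), NBR1 (1.45 ± 0.27, adjusted p = 0.0789), GABARAP (1.75 ± 0.35, adjusted p = 0.0897) and ATG13 (1.47 ± 0.30, adjusted p = 0.0926) came next, and 14 members had an unadjusted p under 0.05, with 2806 genes. These values share the control and combination arrays with the IM effect and are no separate evidence. Against IM alone 0 members and 0% of all genes were called (3 members and 605 genes unadjusted), with BNIP3 (1.07 ± 0.77, adjusted p = 1), ATG4D (0.81 ± 0.33, adjusted p = 1), MAP1LC3B (0.79 ± 0.47, adjusted p = 1) and ATG3 (0.77 ± 0.23, adjusted p = 1) the largest among members detected on all 8 arrays. The OR21 by IM interaction also called 0 members and 0% of genes (1 member and 274 genes unadjusted, the member being ATG3 at 0.79 ± 0.33, adjusted p = 1).

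The combination was measured once in each line, so its ratio to control within a line is a value without a test. In KBM5 the ratio of combination to control was at least 15.4 for GABARAPL1, 10.9 for CALCOCO1, 5.46 for GABARAP, 4.01 for SQSTM1, 3.85 for ATG13, 3.21 for ULK1 and 0.173 for BNIP3. In K562 it was at least 7.81 for CALCOCO1, 3.72 for ATG14, 3.14 for ATG4A, 3.10 for BNIP3L and 2.95 for RB1CC1. BNIP3 in KBM5 was higher on the combination array (1740) than on the IM array (820), and in K562 the same step went from 5170 to 10679.

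Other genes of the pathway were read from 6 lists, whose counts stand against 2.75% of all genes higher and 4.87% lower across the lines, 5.34% and 8.05% in K562 and 10.8% and 10.6% in KBM5. The fusion and tethering genes (15 of 18 measured) had 5 members higher and none lower with IM across the lines, with a median of 0.44. These were VPS11 (1.11 ± 0.18, adjusted p = 0.0206), VPS39 (1.03 ± 0.19, adjusted p = 0.0266) and VPS41 (1.06 ± 0.16, adjusted p = 0.0184), all subunits of the HOPS tethering complex, the late endosomal SNARE STX7 (1.05 ± 0.22, adjusted p = 0.0387) and EPG5, which stands in the next list as well. In K562 the list had 5 higher and in KBM5 7 higher, with none lower. Other initiation, nucleation and closure genes (19 of 24 measured) had 1 higher across the lines, the tether EPG5 (0.82 ± 0.17, adjusted p = 0.0386, detected on 1 of 4 arrays without IM), with a median of 0.14. They had 6 higher and 1 lower in KBM5, and 1 higher and 1 lower in K562. Other selective autophagy genes (19 of 25 measured) had 2 higher and 1 lower with a median of 0.28. NCOA4, the receptor for ferritin, rose by 1.75 ± 0.21 (adjusted p = 0.0092), and BCL2L13, a mitochondrial receptor, by 1.13 ± 0.16 (adjusted p = 0.0148). NUFIP1, a receptor for ribosomes, was lower (-1.58 ± 0.25, adjusted p = 0.0195) and above background on 1 of 8 arrays only.

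Upstream regulators showed calls in both directions. Of the mTORC1 and nutrient sensing genes (34 of 35 measured) 2 rose and 2 fell across the lines, with a median of 0.13. SEH1L, which serves the GATOR2 complex and the nuclear pore, had a difference of -1.78 ± 0.22, adjusted p = 0.0101 and DDIT4, a stress-induced mTORC1 inhibitor, of -1.65 ± 0.34, adjusted p = 0.0374. SESN1, a leucine sensor and p53 target, was at least 2.00-fold higher with IM (adjusted p = 0.0185) and FNIP1, the partner of folliculin, rose by 0.97 ± 0.20 (adjusted p = 0.0364). Of the AMPK genes (11 of 11 measured) STRADA, which activates LKB1, was the only call (0.98 ± 0.19, adjusted p = 0.029), and the list's median was 0.38.

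The transcriptional regulators of autophagy (22 of 25 measured) had 3 members higher and 2 lower with IM across the lines, with a median of 0.09. MYC, which opposes TFEB family factors at E-boxes, had a difference of -2.31 ± 0.21, adjusted p = 0.00565, nearly equal in K562 (-2.33 ± 0.25) and KBM5 (-2.29 ± 0.25). XBP1, the unfolded protein response factor, had -1.93 ± 0.31, adjusted p = 0.0196. FOXO3, an activator of many autophagy genes, rose by 0.85 ± 0.18 (adjusted p = 0.0409). FOXO4 (1.19 ± 0.23, adjusted p = 0.0288) was above background on 1 of 8 arrays, and ZKSCAN3 (adjusted p = 0.0125, higher) on none, so that it has no size. TFEC, a TFEB relative of myeloid cells, was at background in K562 and rose with IM in KBM5 by 3.45 ± 0.23 (adjusted p = 1.04e-05), and the test of the difference between the lines called it (adjusted p = 0.000295). HIF1A rose in KBM5 (1.12 ± 0.25, adjusted p = 0.00889) and differed by -0.42 ± 0.25 in K562. NFE2L2, which activates SQSTM1, fell in K562 (-1.23 ± 0.28, adjusted p = 0.0151) and differed by 0.75 ± 0.28, adjusted p = 0.0843 in KBM5. In KBM5, MITF (higher, adjusted p = 0.0073) and E2F1 (lower, adjusted p = 0.000155) also passed the test, both at background on every KBM5 array and so without a size. In K562, MXI1, an antagonist of MYC, rose (0.98 ± 0.27, adjusted p = 0.0379) and MLX, a helix-loop-helix partner of the Mondo factors, fell (-0.85 ± 0.23, adjusted p = 0.0364). For the combination against control MYC was the only called gene of the list (-2.41 ± 0.29, adjusted p = 0.0491).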

How the data were processed

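Expression arrays measured biotin-labelled total RNA of 2 cell lines, 1 array per line and treatment. The authors deposited linear intensity values per probe set; the software, summarization and normalization were not given in the sources read. Of 24351 probe sets, 17709 carried 1 gene symbol in the supplied platform annotation, giving 17687 genes, and the brightest probe set was used for the 20 genes with more than 1. Intensities were analysed as log2(value). Background was set on each array at the 95th percentile over 612 negative controls. Where all arrays on one side of a comparison were at background a fold is a lower bound ("at least", against that background), where both sides were no fold is given, and where only some were the size is not exact. The array number limits the precision.

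R 4.3.3 with limma 3.58.1 was used, with Benjamini-Hochberg adjustment over all genes and calls at an adjusted p under 0.05. The model of both lines had terms for line and treatment (3 residual degrees of freedom); the model per line had a baseline, an OR21 and an IM term for each line (2 residual degrees of freedom). There were 11 contrasts. Nothing in the labels says that arrays came from repeat cultures, so p-values cover only the spread among these arrays, which may be technical. The procedure was tested on simulated data.

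Every member is named by role; called members, the ATG8 family and members with the highest or lowest mean level get all 8 values. Up to 4 called genes are named for each other list (EPG5, in both the fusion list and the initiation list, is named under the latter), and all called transcriptional regulators. Members, lists and rules were chosen with earlier results of these data known. Alternatives were quantile normalization, brighter genes only, an intensity trend with robust moderation, the mean of probe sets, log2(value + 16), the line left out, a common OR21 by IM term, each array left out, folds of 1.5 and 3 in place of 2, and a background at the 99th percentile. Motifs and CpG dinucleotides were counted in RefSeq promoter windows, with the chr8 windows of members left out.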

Additional observations from a re-analysis of the deposited data

Results flagged for a closer look

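For 6 members the effect of IM differed between the lines in limma's test of the difference (KBM5 minus K562, log2). Of the 8460 genes above background on any array, 803 were called higher and 766 lower, so the members were called no more often. GABARAPL1 had a difference of 2.98 (adjusted p = 0.00141) with its KBM5 control at background, SQSTM1 of 1.80 (adjusted p = 0.00876) and ATG7 of 1.49 (adjusted p = 0.0259). BNIP3 had -2.62 (adjusted p = 0.00681). OPTN had -1.76 (adjusted p = 0.00788) with every KBM5 array at background, and ATG16L1 had 1.30 (adjusted p = 0.0301) with 1 of 8 arrays above background.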

How the results depend on the processing

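No direction of a member called for a contrast reversed under any alternative run. Without the replicate block (the cell line, which pairs the arrays of a treatment, left out), 0 members were called for IM across the lines, against 8, and 0 for the combination against control, against 1. The replicate numbers of the groups pair nothing else, since each group had 1 array. The 1 combination call was also lost with quantile normalization (0), with log2(value + 16) (0) and with each array left out (0). With each array left out in turn, IM called 1 to 5 members across the lines, 3 to 17 in K562 and 11 to 14 in KBM5; OR21 called 0 to 1 in KBM5, and the IM difference between lines 2 to 10. An intensity trend with robust moderation called 2 members for OR21 in KBM5, against 0, and 11 for the IM difference, against 6; brighter genes alone also gave 11 there. In the other contrasts the counts moved by less than 1.5 times under these settings. The background at the 99th percentile left 25 members detected on any array, against 38. With a fold of 1.5 in place of 2 in both array pairs, 14 members and 1254 of all genes were higher with IM in K562, against 7 and 446, and 17 and 1899 in KBM5, against 6 and 883. At 3-fold these were 3 and 152 in K562 and 4 and 278 in KBM5. The design of 1 array per line and treatment limits the precision, and members near background have no exact sizes.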
